A study of Mus musculus with 3 samples.

Results

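Cholesterol synthesis, sensing and efflux were followed through 32 of the 55450 genes in the count tables, found there by their gene symbols. They comprised 8 genes of the mevalonate steps, 11 genes of the squalene and sterol steps, 4 genes of sterol sensing, 5 genes of lysosomal release, transfer and esterification, and 4 genes of nuclear receptors and efflux. Cells build cholesterol from acetyl-CoA by way of mevalonate, isoprenoids, squalene and lanosterol. When the sterol content of the endoplasmic reticulum is low, SCAP escorts the transcription factor SREBP2 to the Golgi, where it is cut and released to switch on the synthesis genes; when sterol is plentiful, the INSIG proteins hold SCAP back. Oxidised sterols activate the LXR nuclear receptors, which raise the export pumps ABCA1 and ABCG1. In the testis, Leydig cells turn cholesterol into testosterone and store it as esters, Sertoli cells take up dying germ cells and residual bodies with their lipid, and germ cells make sterol intermediates of their own.

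Single cells of mouse testis were profiled with a droplet method that reads the 3' ends of transcripts and tags each captured molecule (UMI). All animals had received busulfan, a drug that kills dividing germ cells. The EXO library came from the group that also received blood exosomes, small membrane vesicles, of wild-type mice; the dEXO library from the group given blood exosomes of mice with a disturbed gut microbiota; and the PBS library from the group given the buffer. Strain, age, doses, times and the number of animals pooled in a library are not given in the sources used here. There was 1 library per group, so no difference between libraries has a replicate check and no p-value is given. All intervals are 95% intervals that cover counting error only, and a difference between libraries cannot be told apart from a difference between treatments.

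The EXO, dEXO and PBS libraries held 10228, 9760 and 5514 barcodes with 91787154, 96655663 and 97253862 UMIs, and 9764, 8945 and 5267 cells were used, with medians of 3233, 3035 and 8398 UMIs per cell. Any pair of libraries shared between 15 and 17 cell barcodes. The protocol text of the labels names aorta, but markers of Leydig, Sertoli and germ cells led clusters, as the tissue label testis has it. Clusters were built without the 32 genes and without 32 further genes of cholesterol handling, so that their levels did not shape the cell classes. Leydig-like cells (1791 in EXO, 1796 in dEXO and 1354 in PBS) joined cluster c7, led by kallikrein genes such as Klk1, and cluster c2, led by Svs5 and Hsd3b1. Cluster c7 held 1278, 156 and 1302 of them and c2 held 513, 1640 and 52, so most dEXO Leydig-like cells lay in another cluster than those of EXO and PBS. Stromal-like cells numbered 4357 in EXO, 2717 in dEXO and 1950 in PBS, and Sertoli-like cells 228, 560 and 81. Cluster c0, led by Tnnt2 and Cpz, stayed unnamed; it held 740 EXO, 244 dEXO and 787 PBS cells, and its Leydig markers summed to 50.3%, 41.4% and 61.9% of their level in Leydig-like cells of the same library.

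Levels are given as counts per 1000000 UMIs (CPM) of a class or cluster within a library, and each gene is compared with itself across cells. Position and upstream sequence are shown for the first 6 genes, in the order of the pathway, whose promoter window held a searched motif. All are genes of the mevalonate steps. Of these, 5 were lower in both exosome libraries than in PBS in Leydig-like cells, and Ggps1 was higher in both. Hmgcs1, which joins acetyl-CoA and acetoacetyl-CoA, lies at chromosome 13, 119690379 to 119708260, gene ID ENSMUSG00000093930; Mvk, mevalonate kinase, at chromosome 5, 114444269 to 114460591, gene ID ENSMUSG00000041939; Pmvk, phosphomevalonate kinase, at chromosome 3, 89454541 to 89469013, gene ID ENSMUSG00000027952; Mvd, which forms isopentenyl diphosphate, at chromosome 8, 122433601 to 122443422, gene ID ENSMUSG00000006517; Idi1, its isomerase, at chromosome 13, 8885501 to 8892451, gene ID ENSMUSG00000058258; and Ggps1, which makes the geranylgeranyl chain for protein prenylation and not for sterols, at chromosome 13, 14050659 to 14063488, gene ID ENSMUSG00000021302. All positions are in GRCm38. RefSeq promoter windows of GRCm38.p6 matched 26 of the 32 symbols, and Fdps, Fdft1, Sqle, Npc1, Stard4 and Abcg1 had no match. The 250 bases before each start site follow, 5' to 3', with motif matches in capitals. Start sites are those of RefSeq and can differ from the GENCODE gene ends given above, so that the Idi1 stretch reaches into the gene as positioned there. Capitals mark CCAAT or its complement ATTGG, the box bound by the factor NF-Y, and in Hmgcs1 also the sterol regulatory element match TCACCCCAC:
Hmgcs1, chr13:119690101-119690350, plus strand: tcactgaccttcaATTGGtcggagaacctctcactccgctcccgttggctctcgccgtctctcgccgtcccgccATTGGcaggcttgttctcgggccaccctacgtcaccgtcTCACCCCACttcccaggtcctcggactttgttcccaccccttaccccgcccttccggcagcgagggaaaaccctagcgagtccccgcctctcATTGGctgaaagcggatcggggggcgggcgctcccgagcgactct
Mvk, chr5:114444019-114444268, plus strand: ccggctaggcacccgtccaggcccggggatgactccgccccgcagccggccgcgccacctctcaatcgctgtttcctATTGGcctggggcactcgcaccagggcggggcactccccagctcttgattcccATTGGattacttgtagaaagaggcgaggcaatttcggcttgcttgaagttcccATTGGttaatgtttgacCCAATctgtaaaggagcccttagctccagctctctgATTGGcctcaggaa
Pmvk, chr3:89454291-89454540, plus strand: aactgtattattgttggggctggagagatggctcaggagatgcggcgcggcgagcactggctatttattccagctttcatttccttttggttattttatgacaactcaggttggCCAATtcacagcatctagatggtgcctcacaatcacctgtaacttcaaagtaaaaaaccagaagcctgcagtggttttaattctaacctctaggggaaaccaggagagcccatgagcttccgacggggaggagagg
Mvd, chr8:122443423-122443672, minus strand: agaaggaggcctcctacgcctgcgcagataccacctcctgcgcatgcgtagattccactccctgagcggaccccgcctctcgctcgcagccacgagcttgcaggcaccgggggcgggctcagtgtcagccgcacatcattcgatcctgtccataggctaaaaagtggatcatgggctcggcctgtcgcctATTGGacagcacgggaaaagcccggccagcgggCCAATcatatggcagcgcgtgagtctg
Idi1, chr13:8885356-8885605, plus strand: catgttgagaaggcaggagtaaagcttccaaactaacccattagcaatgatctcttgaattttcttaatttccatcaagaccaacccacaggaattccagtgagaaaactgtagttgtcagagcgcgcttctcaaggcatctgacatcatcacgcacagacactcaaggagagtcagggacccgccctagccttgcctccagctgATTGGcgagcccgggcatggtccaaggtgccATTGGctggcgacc
Ggps1, chr13:14063489-14063738, minus strand: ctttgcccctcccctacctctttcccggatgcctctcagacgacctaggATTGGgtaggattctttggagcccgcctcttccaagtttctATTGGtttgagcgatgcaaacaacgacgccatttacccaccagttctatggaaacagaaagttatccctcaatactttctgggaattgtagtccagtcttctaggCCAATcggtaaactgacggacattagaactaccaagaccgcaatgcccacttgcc

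Windows of 300 bases, with 50 bases after the start, were searched on both strands for 4 motifs. CCAAT was found in 21 of these 26 genes, or 80.8%, against 41.1% of all 27025 genes with a window and 37.4% of their 32851 windows. The relaxed sterol element TCACNCCAC was found in Hmgcs1 alone of the 26 genes and in 1.24% of all windows. The full element, ATCAC followed at once by CCCAC, and the LXR repeat, AGGTCA given again after a spacer of 4 bases, were found in none of the 26 and in 0.0913% and 0.0152% of all windows. A letter match describes the window and shows no binding. Only the given letters were searched, so the lack of a match does not show the lack of a site. Ggps1 holds CCAAT as the other 5 do.

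Most synthesis genes were high in Leydig-like cells and in c0 and lower in stromal-like, Sertoli-like, T or NK-like and germ cells. The other unnamed clusters with at least 25% of the Leydig marker level and at least 50 cells in each library also carried them: the median of the 19 genes, as a percentage of the Leydig-like level, was 100.3% in EXO, 102% in dEXO and 93.8% in PBS for c19, 97.1%, 96.4% and 71.2% for c8, and 74.4%, 88.5% and 54.7% for c1. Their Leydig markers summed to 77.5%, 84.5% and 75.6% in c19, 54.4%, 67.6% and 48.7% in c8, and 33.9%, 50.2% and 36.8% in c1. These clusters were led by macrophage genes (c19), T cell genes (c8) and cell division genes (c1), and the part of mixed droplets in their levels was not tested. Of the 19 synthesis genes, 18 were at least 1.5-fold higher in Leydig-like than in stromal-like cells in all 3 libraries, against 14.2% of all genes with at least 50 UMIs. Together they made up 3905 CPM in EXO, 3453 CPM in dEXO and 4871 CPM in PBS Leydig-like cells, but 578, 567 and 468 CPM in stromal-like cells of the same libraries. Fdps, which makes farnesyl diphosphate, stood at 605 CPM in EXO, 540.5 CPM in dEXO and 713 CPM in PBS Leydig-like cells, and at 31.9 CPM in EXO, 34.3 CPM in dEXO and 30.6 CPM in PBS stromal-like cells. The exception was Ggps1, at 39.1 CPM in EXO, 37.4 CPM in dEXO and 35.3 CPM in PBS Leydig-like cells and 71.7 CPM in EXO, 63.7 CPM in dEXO and 55.2 CPM in PBS stromal-like cells, so it was lower in Leydig-like cells in each library. Leydig markers in stromal-like cells summed to 1.59%, 1.65% and 1.41% of their Leydig-like level in EXO, dEXO and PBS. All 19 synthesis genes stood above that share there, with medians of 15.03%, 20.4% and 9.75% of the Leydig-like level.

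**Figure D1:**
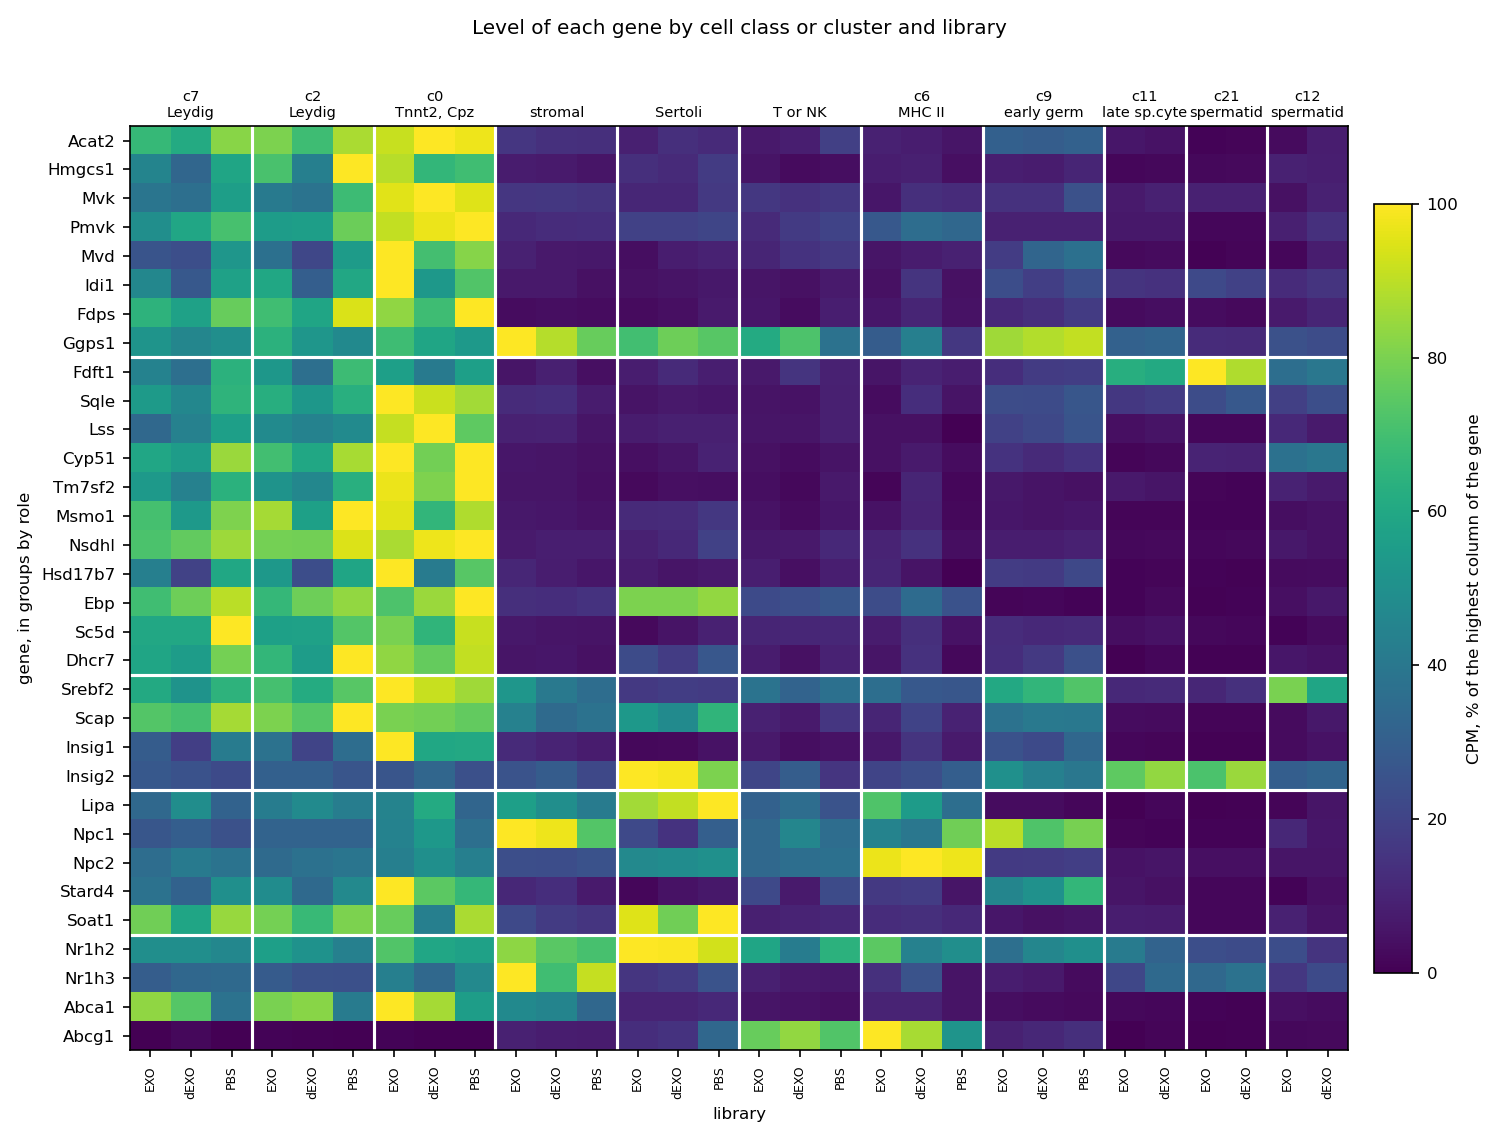
Each row is 1 gene, in 5 groups by role from the mevalonate steps at the top to nuclear receptors and efflux at the bottom, and each column 1 library within a class or cluster; colour gives the CPM as a percentage of the gene's highest column. Most synthesis genes are brightest in c0, c7 and c2, Fdft1 is brightest in c21, and Ggps1, Insig2, Lipa, Npc1, Npc2, Soat1, Nr1h2, Nr1h3 and Abcg1 peak in other cells; PBS columns are left out for c11, c21 and c12, which held fewer than 50 PBS cells.

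Cluster c0 carried most synthesis genes above the Leydig-like level although its Leydig markers were lower. In EXO and in dEXO all 19 were higher in c0 than in Leydig-like cells, with a median of 162% and 146% of the Leydig-like level. In PBS the median was 118% and the lowest 87.6%, with Fdft1 at 214 CPM in c0 and 244 CPM in Leydig-like cells and Sc5d at 310.2 and 335 CPM. The share of all genes higher in c0 at any size was not counted, so these counts have no background. Mvk, Mvd and Tm7sf2, a sterol reductase whose gene overlaps Vps51 on the same strand so that reads may be shared, were at least 1.5-fold higher in c0 in all 3 libraries, which is 3 of 19 beside 10.7% of all genes. Mvd had 109 CPM in EXO, 76.5 CPM in dEXO and 89.4 CPM in PBS cells of c0, and 31.1 CPM in EXO, 23.5 CPM in dEXO and 57.4 CPM in PBS Leydig-like cells. Insig1, the sterol sensor that SREBP2 itself induces, had 331 CPM in EXO, 198 CPM in dEXO and 199 CPM in PBS cells of c0, and 102 CPM in EXO, 67.7 CPM in dEXO and 138 CPM in PBS Leydig-like cells. Stard4, a carrier that moves sterol between membranes, had 117 CPM in EXO, 87.3 CPM in dEXO and 77.5 CPM in PBS cells of c0 and 46.96 CPM in EXO, 39.6 CPM in dEXO and 58.01 CPM in PBS Leydig-like cells. For these 3 genes c0 lay above Leydig-like cells in each library. The median cell of c0 held 10190 UMIs in EXO, 7790 in dEXO and 20986 in PBS, fewer than the 18697, 14299 and 34693.5 of Leydig-like cells, and its stromal markers summed to 3334, 4086 and 2364 CPM. The part of mixed droplets in these levels was not tested.

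Abca1 followed most synthesis genes in being highest in c0 and next in Leydig-like cells, while several lysosomal and receptor genes peaked elsewhere. Abca1, the pump that hands cholesterol to apolipoprotein A-I (chromosome 4, 53030787 to 53159895, gene ID ENSMUSG00000015243), was highest in c0 at 1140.4 CPM in EXO, 989 CPM in dEXO and 635 CPM in PBS. It had 940.5 CPM in EXO, 929.9 CPM in dEXO and 432 CPM in PBS Leydig-like cells, 539.981 CPM in EXO, 513 CPM in dEXO and 379 CPM in PBS stromal-like cells and 62.6 CPM in EXO, 55.9 CPM in dEXO and 46.6 CPM in PBS T or NK-like cells. Abcg1, which exports cholesterol to high-density lipoprotein, had 7 UMIs in EXO, 10 in dEXO and 3 in PBS Leydig-like cells, too few for a comparison. It was found in T or NK-like cells at 34.5 CPM in EXO, 37.7 CPM in dEXO and 32.7 CPM in PBS and in c6, the cluster led by MHC class II and C1q genes, at 45.01 CPM in EXO, 39.1 CPM in dEXO and 23.3 CPM in PBS. Npc2, the lysosomal sterol carrier, was highest in c6, with 843 CPM in EXO, 868 CPM in dEXO and 846 CPM in PBS. Its partner Npc1, which passes sterol through the lysosomal membrane, was higher in stromal-like cells, with 46.8 CPM in EXO, 45.6 CPM in dEXO and 34.3 CPM in PBS, than in Leydig-like cells, with 13.1 CPM in EXO, 14.8 CPM in dEXO and 11.8 CPM in PBS. Nr1h3, the gene of LXR alpha, was likewise higher in stromal-like cells, with 32.1 CPM in EXO, 22.3 CPM in dEXO and 29.2 CPM in PBS, than in Leydig-like cells, with 9.39 CPM in EXO, 8.12 CPM in dEXO and 10.8 CPM in PBS. Nr1h3, Npc1 and Ggps1 were the 3 of the 31 genes with enough UMIs that were at least 1.5-fold higher in stromal-like than in Leydig-like cells in all libraries, a share below the 44.8% of all genes.

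Sertoli-like cells combined low levels of most synthesis genes with high levels of a few. Insig2, the sensor that does not depend on SREBP2, had 145 CPM in EXO, 143 CPM in dEXO and 117 CPM in PBS Sertoli-like cells, and 41.1 CPM in EXO, 43.9 CPM in dEXO and 32.7 CPM in PBS Leydig-like cells. Lipa, the lysosomal lipase that frees cholesterol from its esters, had 67.6 CPM in EXO, 71.2 CPM in dEXO and 78.5 CPM in PBS Sertoli-like cells, and 28.1 CPM in EXO, 37.7 CPM in dEXO and 24.97 CPM in PBS Leydig-like cells. Together with Nr1h2, the gene of LXR beta, these were the 3 genes at least 1.5-fold higher in Sertoli-like than in Leydig-like cells in all libraries, beside 37.7% of all genes. Soat1, which esterifies cholesterol for storage, had 451 CPM in EXO, 373 CPM in dEXO and 475 CPM in PBS Sertoli-like cells and 372 CPM in EXO, 317 CPM in dEXO and 402 CPM in PBS Leydig-like cells. Ebp, the sterol isomerase, had 309 CPM in EXO, 308 CPM in dEXO and 323 CPM in PBS Sertoli-like cells and 264 CPM in EXO, 300.003 CPM in dEXO and 344 CPM in PBS Leydig-like cells. These 2 genes were near the Leydig-like level in each library, while Sc5d, the desaturase that follows Ebp, had 9.01 CPM in EXO, 17.6 CPM in dEXO and 30.6 CPM in PBS Sertoli-like cells, against 200.3 CPM in EXO, 195 CPM in dEXO and 335 CPM in PBS Leydig-like cells. Leydig markers in Sertoli-like cells summed to 1.70% of the Leydig-like level in EXO, 4.16% in dEXO and 11.2% in PBS, and 6 of the 19 synthesis genes in PBS Sertoli-like cells stood below that PBS share.

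Levels of single synthesis genes differed between the germ cell clusters. The clusters were c9, with markers of spermatogonia and early spermatocytes (402 EXO and 716 dEXO cells), c11, with markers of late spermatocytes (221 and 399), c21, spermatid-like with many UMIs per cell (240 and 386), and c12, spermatid-like and led by protamine genes with few UMIs (325 and 581). Of the 18 synthesis genes with enough UMIs, 13 were at least 1.5-fold higher in c9 than in c11 in both EXO and dEXO, beside 50.0% of all genes. Fdft1, squalene synthase, was the only synthesis gene that was 1.5-fold higher in c11 than in c9, beside 28.2% of all genes. Fdft1 had 49.1 CPM in EXO and 65.3 CPM in dEXO in c9, 237 CPM in EXO and 229.971 CPM in dEXO in c11, 379 CPM in EXO and 334 CPM in dEXO in c21 and 137 CPM in EXO and 151 CPM in dEXO in c12. In c21 it stood above the Leydig-like level of 175 CPM in EXO and 138 CPM in dEXO. Cyp51, which demethylates lanosterol, ran the other way between c9 and c11, with 76.98 CPM in EXO and 64.2 CPM in dEXO in c9, 6.83 CPM in EXO and 12.05 CPM in dEXO in c11, 53.1 CPM in EXO and 51.2 CPM in dEXO in c21 and 199 CPM in EXO and 210.3 CPM in dEXO in c12. It was lowest in late spermatocytes and highest in the protamine-led cluster. Dhcr7, a reductase that ends the route to cholesterol and counted 2 UMIs in c11 of EXO, had 29.8 CPM in EXO and 38.2 CPM in dEXO in c9, 0.683 CPM in EXO and 4.30 CPM in dEXO in c11, 1.01 CPM in EXO and 1.79 CPM in dEXO in c21 and 13.7 CPM in EXO and 11.1 CPM in dEXO in c12.

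Sensing genes also differed between germ cell clusters. Insig1 had 83.9 CPM in EXO and 74.7 CPM in dEXO in c9, 5.46 CPM in EXO and 4.42 CPM in dEXO in c11 and 2.36 CPM in EXO and 2.15 CPM in dEXO in c21, while Insig2 had 72.99 CPM in EXO and 63.4 CPM in dEXO, 109 CPM in EXO and 122 CPM in dEXO and 104 CPM in EXO and 123 CPM in dEXO in the same clusters. Between c9 and these 2 clusters Insig1 was lower and Insig2 higher. In c12 both were lower than in c9, with Insig1 at 9.46 CPM in EXO and 16.7 CPM in dEXO and Insig2 at 43.1 CPM in EXO and 46.7 CPM in dEXO. Srebf2, the gene of SREBP2, had 67.5 CPM in EXO and 73.7 CPM in dEXO in c9, 12.97 CPM in EXO and 13.4 CPM in dEXO in c11, 11.8 CPM in EXO and 15.3 CPM in dEXO in c21 and 89.4 CPM in EXO and 65.6 CPM in dEXO in c12. Leydig markers summed to at most 3.89% of the Leydig-like level in these 4 clusters of EXO and dEXO, reached in c12 of dEXO. Of 14 synthesis genes with enough UMIs, 9 were at least 1.5-fold higher in c12 than in c21, beside 43.4% of all genes. The median cell held 40917.5 UMIs in EXO and 37500.5 in dEXO in c21, but 1435 and 1376 in c12, and the part of depth and of mixed droplets in this difference was not tested.

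**Figure D2:**
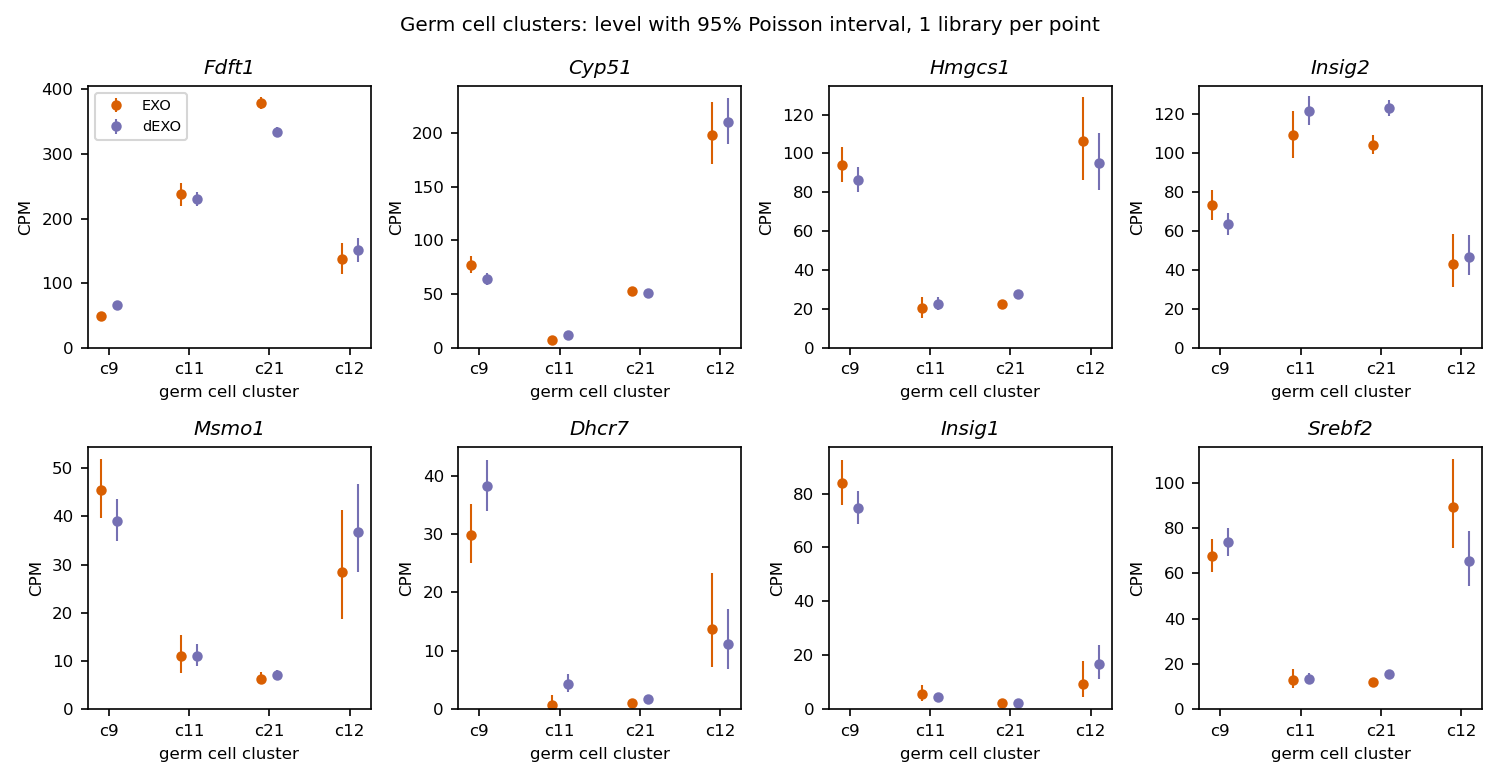
Points give the CPM of 8 genes in 4 germ cell clusters, with EXO left of dEXO and bars for the 95% Poisson interval. Fdft1 peaks in c21 and Cyp51 in c12, while Msmo1, Dhcr7 and Insig1 are highest in c9.

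The first comparison between libraries set EXO against PBS in Leydig-like cells, where synthesis genes were lower and Abca1 was higher in EXO. Of the 19 synthesis genes, 18 were lower in EXO, beside 45.2% of all genes, and 3 were at least 1.5-fold lower, beside 4.59% of all genes. The median log2 ratio of the 19 was -0.38, against 0.03 over all genes. All 11 genes of the squalene and sterol steps and 7 of the 8 of the mevalonate steps were lower. Mvd (chromosome 8, 122433601 to 122443422, gene ID ENSMUSG00000006517) stood at 31.1 CPM in EXO and 57.4 CPM in PBS, a log2 ratio of -0.88 (-0.99 to -0.78). Sc5d, the sterol desaturase (chromosome 9, 42251595 to 42264256, gene ID ENSMUSG00000032018), stood at 200.3 CPM in EXO and 335 CPM in PBS, a log2 ratio of -0.74 (-0.78 to -0.70). Lss, lanosterol synthase, had a log2 ratio of -0.60 (-0.68 to -0.52). These 3 were the lowest. Ggps1 was the exception at 0.15 (0.04 to 0.25).

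In the same comparison Abca1 stood at 940.5 CPM in EXO and 432 CPM in PBS, a log2 ratio of 1.12 (1.10 to 1.15). It was the only one of the 31 measured genes that was at least 1.5-fold higher, beside 10.7% of all genes. Next in order were Insig2 at 0.33 (0.22 to 0.43) and Lipa at 0.17 (0.05 to 0.29). Srebf2 was at -0.04 (-0.12 to 0.03), an interval that includes 0, and Nr1h2 at 0.14 (0.04 to 0.24). The same contrast within single clusters gave 18 of 19 synthesis genes lower in c7 (median -0.39), beside 49.9% of all genes, and 18 of 19 lower in c2 (median -0.31), beside 41.6%, where PBS had only 52 cells. Abca1 was at 1.14 in c7 and 0.95 in c2. PBS Leydig-like cells were deeper, and in cells of 10000 to 30000 UMIs alone 18 of 19 were again lower, with a median of -0.31. This window was chosen after seeing the data and depth was not matched within it, so the part of depth was not tested. With the cells of highest doublet score removed, 5 of 31 genes were at least 1.5-fold lower, beside 5.95% of all genes. With cluster c0 joined to the Leydig-like cells, 1 of 31 genes was at least 1.5-fold lower, beside 4.58%.

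The dEXO library against PBS gave the same picture with larger differences for some genes; both comparisons share the PBS library. Of the 19 synthesis genes, 18 were lower in dEXO, beside 36.5% of all genes, and 5 were at least 1.5-fold lower, beside 4.33%. Their median log2 ratio was -0.50, and -0.62 once centred on the median gene, whose own ratio was 0.11. Hsd17b7, the 3-ketosteroid reductase of the sterol route (chromosome 1, 169949535 to 169969241, gene ID ENSMUSG00000026675), stood at 44.5 CPM in dEXO and 114 CPM in PBS, a log2 ratio of -1.36 (-1.45 to -1.27). Mvd stood at 23.5 CPM in dEXO and 57.4 CPM in PBS, a log2 ratio of -1.29 (-1.41 to -1.16). Insig1 (chromosome 5, 28071363 to 28078662, gene ID ENSMUSG00000045294) stood at 67.7 CPM in dEXO and 138 CPM in PBS, a log2 ratio of -1.02 (-1.10 to -0.95). These were the 3 lowest, and Idi1 (-0.95), Fdft1 (-0.82) and Sc5d (-0.78) were the others past 1.5-fold.

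Higher in dEXO Leydig-like cells were Abca1, at 929.9 CPM in dEXO and 432 CPM in PBS (log2 ratio 1.10, 1.08 to 1.13), and Lipa, at 37.7 CPM in dEXO and 24.97 CPM in PBS (log2 ratio 0.60, 0.47 to 0.72). These 2 of 31 genes were at least 1.5-fold higher, beside 18.3% of all genes. Relative to the median gene the split was 12 lower, beside 6.07% of all genes, and 1 higher, beside 15.7%, in place of 6 lower and 2 higher. Because most dEXO cells lay in c2 and most PBS cells in c7, the contrast was repeated within each. In c7, with 156 dEXO cells, 19 of 19 synthesis genes were lower (median -0.53), beside 48.8% of all genes, and 9 at least 1.5-fold lower, beside 9.82%. In c2, with 52 PBS cells, 18 of 19 were lower (median -0.55), beside 39.6%, and 9 at least 1.5-fold lower, beside 6.01%. Abca1 was at 0.96 in c7 and 0.99 in c2. With the cells of highest doublet score removed, the median of the 19 genes was -0.78 and 17 of 31 genes were at least 1.5-fold lower, beside 7.98% of all genes. With cluster c0 joined to the Leydig-like cells, 8 of 31 genes were at least 1.5-fold lower, beside 6.32%.

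**Figure D3:**
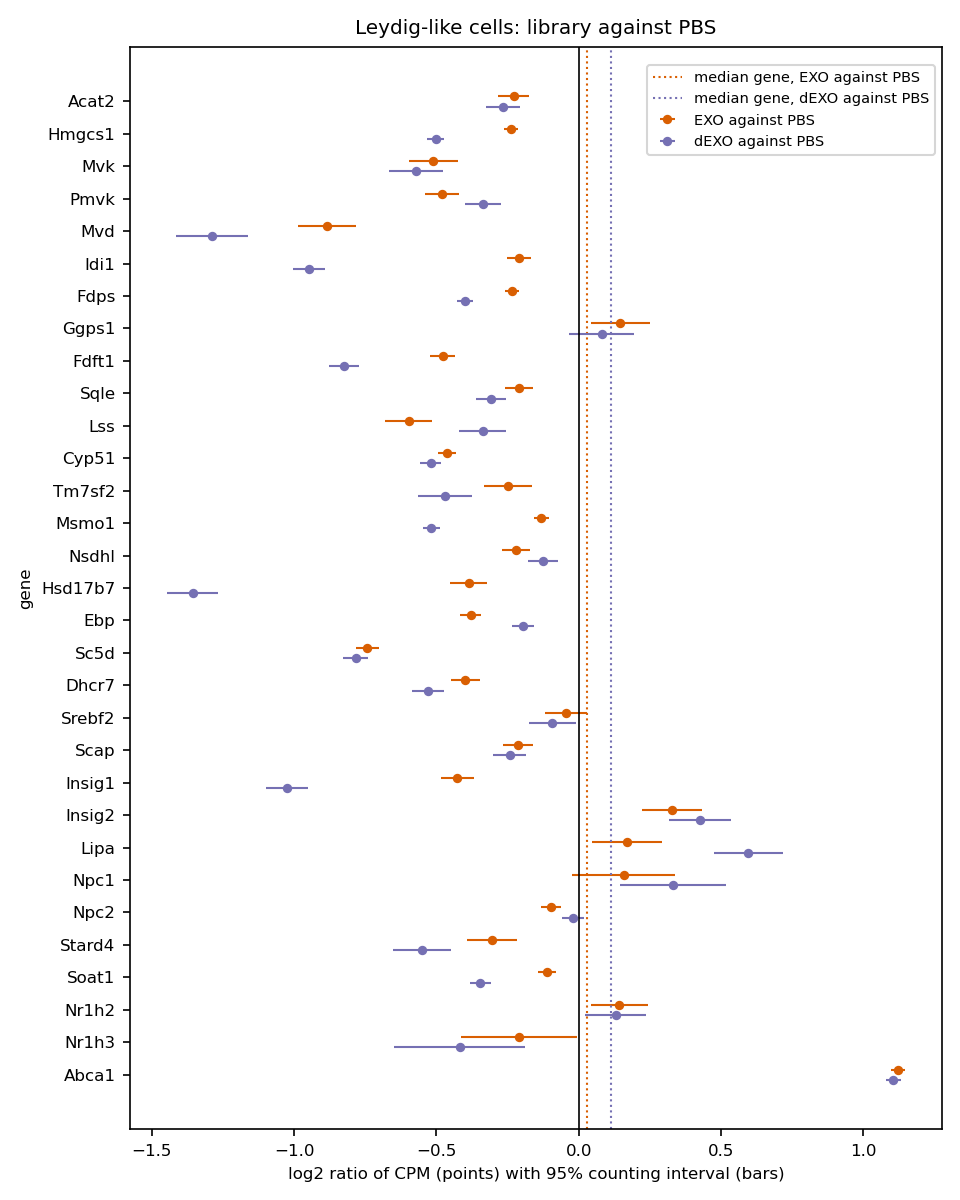
Points give the log2 ratio of CPM in Leydig-like cells, EXO against PBS and dEXO against PBS, for the 31 genes with enough UMIs, with bars for the 95% counting interval and dotted lines at the median over all genes. Synthesis genes from Acat2 to Dhcr7 lie left of 0 except Ggps1, and Abca1 lies farthest right at 1.12 in EXO and 1.10 in dEXO.

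Set directly against each other, dEXO and EXO Leydig-like cells differed in a few genes. Of the 19 synthesis genes 15 were lower in dEXO, beside 32.3% of all genes, with a median of -0.10 (-0.20 relative to the median gene). Hsd17b7 was lowest at 44.5 CPM in dEXO and 87.1 CPM in EXO (log2 ratio -0.97, -1.07 to -0.87), followed by Idi1 (log2 ratio -0.74, -0.80 to -0.68) and Insig1 (log2 ratio -0.60, -0.68 to -0.52). These 3 of 31 genes were at least 1.5-fold lower, beside 2.14%. A 2-fold call left 0 of 31, beside 0.708% of all genes. With the cells of highest doublet score removed, 7 of 31 were at least 1.5-fold lower, beside 3.30%, and the median of the 19 was -0.33. With cluster c0 joined to the Leydig-like cells, 4 of 31 were at least 1.5-fold lower, beside 3.74%. Hsd17b7, Idi1 and Insig1 were also lower in dEXO within c7 and within c2, where Hsd17b7 was at -1.13 and -1.18. Abca1 was at -0.02 (-0.04 to 0.01), and none of the 31 genes was 1.5-fold higher, beside 13.8% of all genes.

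Cluster c0 differed between libraries in its own way. In EXO against PBS, 9 of 19 synthesis genes were lower, beside 35.5% of all genes, and none was at least 1.5-fold lower, beside 2.97%. Abca1 was highest again, at 1140.4 CPM in EXO and 635 CPM in PBS (log2 ratio 0.85, 0.81 to 0.89). Insig1 and Stard4, lower in EXO in Leydig-like cells, were higher in EXO in c0, at 0.73 (0.66 to 0.81) and 0.59 (0.47 to 0.71). These 3 of 31 genes were at least 1.5-fold higher, beside 12.1% of all genes. In dEXO against PBS, 14 of 19 were lower, beside 34.9% of all genes, with a median of -0.23 (-0.39 relative to the median gene). Soat1, the esterifying enzyme, stood at 205 CPM in dEXO and 415 CPM in PBS (log2 ratio -1.02, -1.16 to -0.87), and Hsd17b7 was at -0.83 (-1.07 to -0.60). These 2 were at least 1.5-fold lower, beside 5.90%; Lipa (0.91) and Abca1 (0.64) were at least 1.5-fold higher, beside 18.1%. Against EXO, dEXO cells of c0 had lower Hsd17b7 (log2 ratio -1.26, -1.50 to -1.03), Idi1 (-0.91), Soat1 (-0.83) and Insig1 (-0.74). These were the 4 of 31 genes at least 1.5-fold lower, beside 5.04% of all genes, and Hsd17b7, Idi1 and Insig1 were also the 3 past 1.5-fold in Leydig-like cells.

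**Figure D4:**
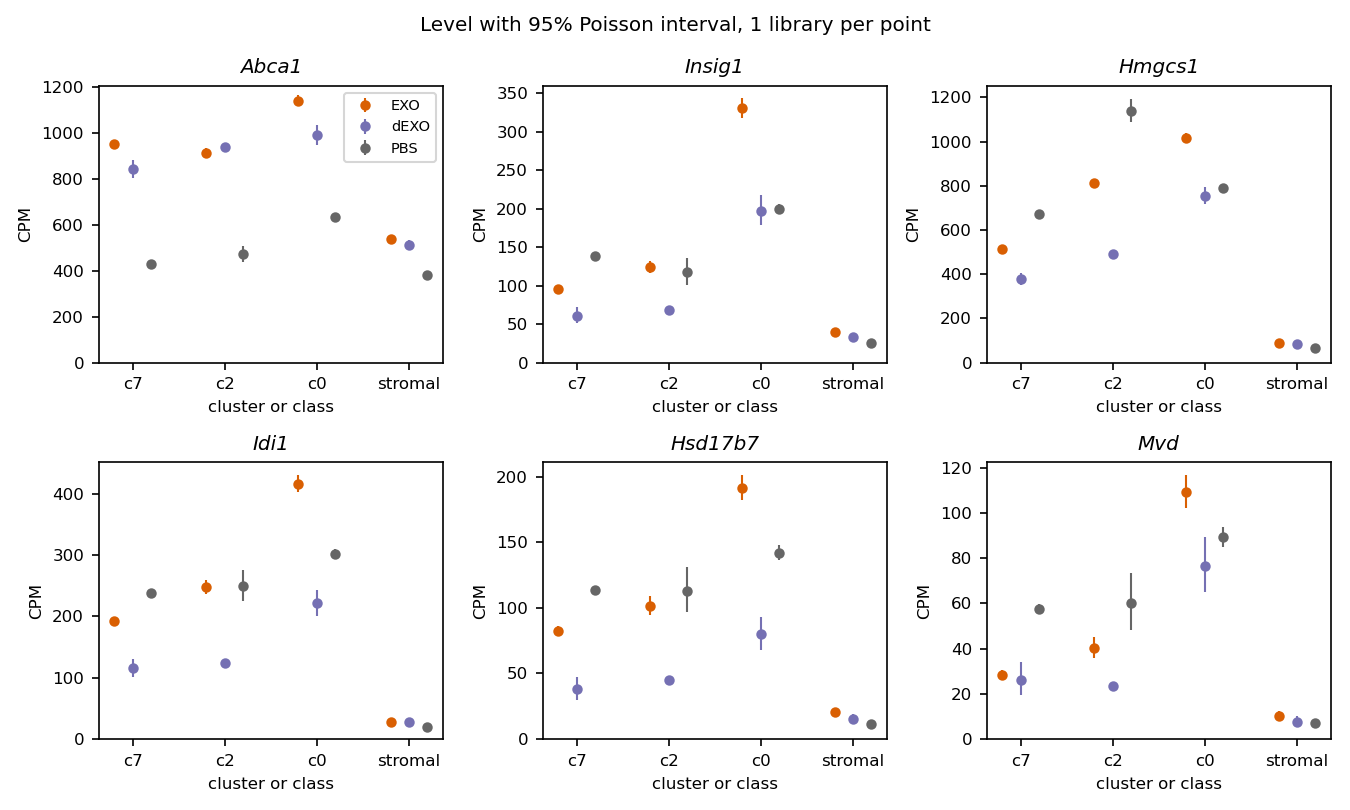
Points give the CPM of 6 genes in clusters c7, c2 and c0 and in stromal-like cells, in the order EXO, dEXO, PBS, with bars for the 95% Poisson interval. Abca1 is lowest in PBS in all 4 cell groups, while Hsd17b7 and Idi1 are lowest in dEXO in c7, c2 and c0.

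In stromal-like cells the synthesis genes were higher in both exosome libraries than in PBS, mostly along with the median gene. In EXO 16 of 19 were higher and 3 lower, beside 22.4% of all genes that were lower. Their median log2 ratio was 0.41, where the median gene was at 0.26, and 6 of the 19 lay below the median gene. In dEXO 17 of 19 were higher and 2 lower, beside 24.0%, with a median of 0.31, where the median gene was at 0.23, and 9 lay below it. The count of 2 lower in dEXO became 6 with the highest doublet scores removed, 5 with at most 10% mitochondrial UMIs and 4 with each cell weighted equally. In each comparison 3 of 19 were at least 1.5-fold higher, beside 18.8% of all genes in EXO and 19.6% in dEXO, so their share lay near that of all genes. Hsd17b7 stood at 20.7 CPM in EXO and 11.8 CPM in PBS (log2 ratio 0.80, 0.47 to 1.14). Abca1 was at 0.51 (0.45 to 0.57) in EXO and 0.44 (0.37 to 0.51) in dEXO, or 0.25 and 0.21 relative to the median gene. Within stromal-like cluster c5, 9 of 15 measured synthesis genes were lower in EXO than in PBS, beside 39.4% of all genes, and 5 of 15 were lower in dEXO, beside 40.7%. Over measured genes of every role, 1 of 26 in c5 was at least 1.5-fold higher in EXO, beside 7.58%. In dEXO it was 1 of 26, beside 11.4%. Cluster c16 had 6 of 30 higher in EXO, beside 10.9%, and 7 of 29 in dEXO, beside 12.4%. Cluster c13 had 5 of 26 in EXO, beside 10.0%, and 3 of 22 in dEXO, beside 11.7%. Cluster c14 had 2 of 15 in EXO, beside 8.61%. At most 1 gene was at least 1.5-fold lower in each of these. Stromal-like cells joined clusters c5, c13, c14, c16 and c18 in a mix that differed between libraries. Cluster c16 held 1653 EXO, 837 dEXO and 441 PBS cells, and c5 held 605, 492 and 701. In the same order, the median synthesis gene stood at 18.2%, 24.9% and 12.2% of the Leydig-like level in c16, and at 10.8%, 18.2% and 7.73% in c5. The part of this mix in the pooled ratios was not tested.

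Fdft1 stood apart in dEXO stromal-like cells, at 33.1 CPM in dEXO and 15.5 CPM in PBS (log2 ratio 1.10, 0.79 to 1.41). Spermatid markers, from cells in which Fdft1 is high, summed to 495 CPM in dEXO, 273 CPM in EXO and 144 CPM in PBS stromal-like cells, and the part of free germ cell RNA in the Fdft1 value was not tested. Stard4 was at 0.89 (0.45 to 1.34) and Sqle, squalene epoxidase, at 0.73 (0.45 to 1.01) in dEXO. Nr1h3 was lowest in dEXO, at -0.39 (-0.70 to -0.09). None of the 32 genes was 1.5-fold lower in either exosome library, beside 1.31% of all genes in EXO and 1.61% in dEXO.

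**Figure D5:**
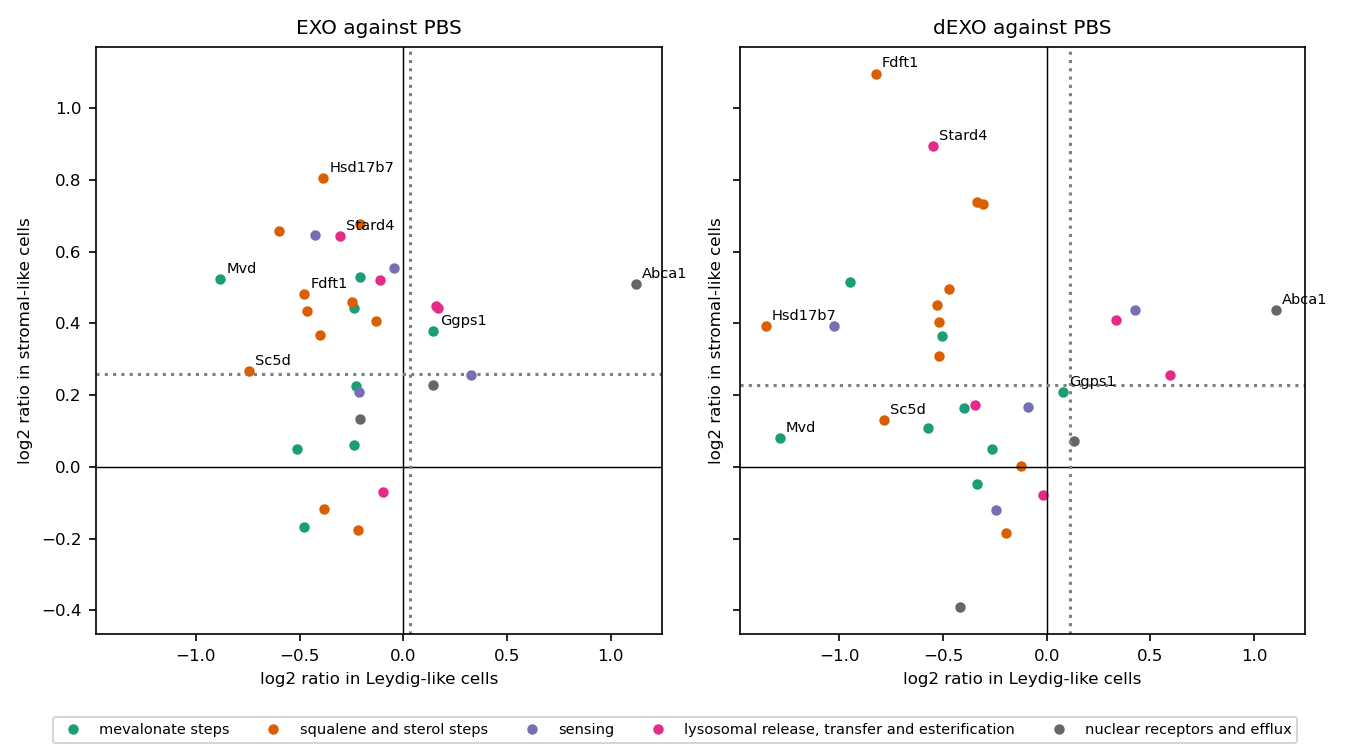
Each point is 1 gene, coloured by role, with its log2 ratio in Leydig-like cells across and in stromal-like cells up, for EXO against PBS and dEXO against PBS; dotted lines mark the median gene. Most synthesis genes lie left of 0 and above 0, and Abca1 lies right of and above 0 in both panels.

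In Sertoli-like cells most synthesis genes were lower in the exosome libraries, on few PBS cells. In EXO 15 of 16 measured genes were lower than in PBS, beside 39.7% of all genes, and in dEXO 14 of 18, beside 41.8%. Sc5d was at -1.77 (-2.62 to -0.96), Fdps at -1.33 (-1.84 to -0.84) and Cyp51 at -1.24 (-1.81 to -0.68) in EXO. Leydig markers were lower there too, at 924 CPM in EXO, 1898 CPM in dEXO and 5107 CPM in PBS Sertoli-like cells, and their part in these ratios was not tested. With the cells of highest doublet score removed, 3 of 7 measured genes were lower in EXO, beside 44.1% of all genes, and 5 of 15 in dEXO, beside 43.4%. Fewer synthesis genes were measured then, so the counts are not over the same genes, and the direction in Sertoli-like cells did not hold. Insig2, high in these cells, was at 0.32 (0.03 to 0.60) in EXO and 0.29 (0.04 to 0.55) in dEXO.

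In the germ cells of c9, 14 of 17 measured synthesis genes were lower in EXO than in PBS, beside 48.9% of all genes, with a median of -0.21. In dEXO 16 of 19 were lower, beside 43.9%, with a median of -0.20. Mvd stood at 19.5 CPM in EXO and 40.3 CPM in PBS (log2 ratio -1.05, -1.45 to -0.65), and Dhcr7 at 29.8 CPM in EXO and 56.04 CPM in PBS (log2 ratio -0.91, -1.24 to -0.59). In dEXO Mvk was lowest, at -0.79 (-1.17 to -0.39), and Mvd was at -0.18 (-0.49 to 0.13), an interval that includes 0. PBS held 114 of these cells, with a median of 23746.5 UMIs against 4897 in EXO and 7786 in dEXO, and the mix of spermatogonia and early spermatocytes within c9 was not compared. In T or NK-like cells 13 of 15 measured synthesis genes were lower in EXO, beside 47.6%, and 10 of 12 in dEXO, beside 46.5%. Fdps was at -0.51 (-0.94 to -0.08) in EXO and -1.33 (-1.98 to -0.73) in dEXO, and Leydig markers in these cells summed to 894, 558 and 997 CPM in EXO, dEXO and PBS.

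A list of 32 other genes of cholesterol handling was set beside these. Between classes, 6 of its 29 measured genes were at least 1.5-fold higher in Leydig-like than in stromal-like cells in all libraries, beside 14.2%, and these included Acly and Acss2, which both make cytosolic acetyl-CoA. That was 6 of 29, where the synthesis genes had 18 of 19. In Leydig-like cells EXO against PBS, 15 of 29 measured genes were lower, beside 45.2% of all genes, and none was past 1.5-fold, with a median of -0.07. In dEXO against PBS 14 of 29 were lower, beside 36.5%. At least 1.5-fold lower were 5 of 29, beside 4.33%, and at least 1.5-fold higher were 4 of 29, beside 18.3%, so the higher share lay below that of all genes. The lower ones included Stard5, a sterol carrier, at -1.08 (-1.20 to -0.97), Aacs, which activates acetoacetate, at -0.98 (-1.13 to -0.83), Acly at -0.63, and Lcat, the plasma cholesterol acyltransferase, at -0.59. The higher ones were Mylip, the ligase that degrades lipoprotein receptors and an LXR target, at 1.00 (0.61 to 1.39), Abcg4, an exporter, at 0.86, and the sterol transporters Gramd1c and Gramd1b at 0.79 and 0.64. In stromal-like cells all 29 measured genes were higher in EXO than in PBS, where 22.4% of all genes were lower, with a median of 0.32 against 0.26 for the median gene, and 5 were at least 1.5-fold higher, beside 18.8% of all genes: Abcg4 (1.06), Tmem97 (0.80), Gramd1a (0.78), Nceh1 (0.67) and Acss2 (0.61). In dEXO 24 of 28 were higher, where 24.0% of all genes were lower, and 5 were at least 1.5-fold higher, beside 19.6% of all genes. Both shares past 1.5-fold lay near those of all genes. The genes in dEXO were Tmem97, a sterol-regulated membrane protein, at 78.9 CPM in dEXO and 25.2 CPM in PBS (log2 ratio 1.65, 1.42 to 1.87), Acss2 (1.06), Gramd1c (1.02), Nceh1 (0.68) and Rnf139 (0.65).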

How the data were processed

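Droplet libraries of 3 samples, 1 per group, were analysed from the matrices of UMI counts per gene and barcode that the authors deposited. The counts were made with Cell Ranger 5.0.1, per the file headers, and the submitters' processing notes name Seurat and GRCm38. Barcodes with under 500 UMIs, under 300 genes or over 20% mitochondrial UMIs were left out (366 in EXO, 641 in dEXO and 243 in PBS). Scrublet called 98, 174 and 4 doublets, which were removed; 4 calls among the PBS barcodes means that the caller had not worked there, so removal of the 807, 712 and 233 cells of highest score was tried as an alternative.

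Cells were clustered with scanpy 1.11.5 (2000 variable genes, 30 components, 15 neighbours, Leiden resolution 1, a fixed random state, 23 clusters) without the 32 genes and the 32 of the further list. Seed 1 was used for the doublet scores and the simulated data. Clusters were called like a cell type from marker lists. After the clusters were looked at, the rule for names was changed, giving 3 versions in all; the final version, which leaves unnamed any cluster with at least 25% of the Leydig-like marker level, was set after levels by class had been printed. UMIs were summed per class and library. Exact Poisson intervals (CPM) and exact conditional binomial intervals (log2 ratios, with a floor of 3 counts) were used. No test was made, as there was 1 library per group. Genes with at least 50 UMIs over the libraries compared were measured, and 1.5-fold was the size called; the share of all genes called the same way is given beside the counts in the comparisons. The interval calculation was tested on simulated data. Genes named per comparison were the 3 highest and 3 lowest; other genes named were chosen after their values were seen. The genes and lists were chosen with earlier results of these data known. Promoter windows came from RefSeq (GRCm38.p6) and gene positions from GENCODE M21. Alternatives are given in the closing section. Some genes of the further list are counted but not reported here by name.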

Additional observations from a re-analysis of the deposited data

Results flagged for a closer look

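Several genes were lower in the exosome libraries than in PBS in Leydig-like cells but higher in stromal-like cells, with both intervals excluding 0. Of all genes, 45.2% in EXO and 36.5% in dEXO were lower in Leydig-like cells, but 22.4% and 24.0% in stromal-like cells. The share of all genes that met the same rule was not counted, so the list has no background. Values are the log2 ratio in Leydig-like cells minus that in stromal-like cells, and the difference was not tested, since each group is 1 library. In EXO against PBS the median of the 19 synthesis genes differed by -0.79. Among mevalonate genes, Hmgcs1 differed by -0.68, Mvd by -1.41 and Idi1 by -0.74. Among squalene and sterol genes, Fdft1 differed by -0.96, Sqle by -0.89, Lss by -1.26, Cyp51 by -0.90, Msmo1 by -0.54 and Hsd17b7 by -1.19. Among the other genes, Scap differed by -0.42, Insig1 by -1.07, Stard4 by -0.95 and Soat1 by -0.63.

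In dEXO against PBS the median of the 19 differed by -0.81. Hmgcs1 differed by -0.87, Idi1 by -1.46, Fdft1 by -1.92, Sqle by -1.04, Lss by -1.08, Cyp51 by -0.92, Msmo1 by -0.83 and Dhcr7 by -0.98. Insig1 differed by -1.42, Stard4 by -1.44 and Soat1 by -0.52. The median gene was 0.26 higher in EXO and 0.23 higher in dEXO in stromal-like cells, so part of each difference is shared with all genes. The mix of stromal-like clusters also differed between libraries, and its part in these differences was not tested. Both comparisons share the PBS library.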

How the results depend on the processing

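Of the summary values recomputed under alternatives, 176 stayed close and 35 moved. Counts were compared without regard to how many genes were measured, so a count can move when fewer genes are measured. Of single genes, 235 stayed close, 121 moved and 4 reversed, counting as reversed a sign change beyond the counting interval where that interval excludes 0. The 235 include the settings with a minimum of 20 or 200 UMIs. These only change which genes are measured and could not change the log2 ratio of a gene, so they show no stability. In dEXO against EXO, where the intervals include 0, Insig2, Abca1 and Sc5d changed sign from 0.10, -0.02 and -0.04 to as far as -0.14, 0.04 and 0.02. Where values moved, the cause was not tested. The count of 18 of 19 synthesis genes lower in Leydig-like cells of EXO stayed at 18 in all 11 alternatives. Those with a minimum of 20 or 200 UMIs could not change it. It was not recomputed with cluster c0 joined to the Leydig-like cells. In that setting, which was not planned, 1 of 31 genes was at least 1.5-fold lower in EXO against PBS, beside 4.58% of all genes. In dEXO 8 of 31 were lower against PBS, beside 6.32%, and 4 of 31 against EXO, beside 3.74%. In Leydig-like cells a 2-fold call left 0 genes lower in EXO against PBS, 0 in dEXO against EXO and 3 in dEXO against PBS, where 1 was higher. In dEXO against PBS 1 gene was higher also with at most 10% mitochondrial UMIs, with each cell weighted equally, at resolution 2 and after centring on the median gene. Centring gave 12 genes lower in dEXO against PBS, medians of -0.62 in dEXO against PBS and -0.20 in dEXO against EXO, and, in stromal-like cells, 6 and 9 of 19 synthesis genes lower in EXO and dEXO against PBS. The dEXO against PBS median was -0.46 with each cell weighted equally and -0.41 at resolution 2. With the highest doublet scores removed, medians were -0.46 in EXO against PBS, -0.78 in dEXO against PBS and -0.33 in dEXO against EXO, with 5, 17 and 7 genes lower. Then 3 of 7 and 5 of 15 synthesis genes were lower in Sertoli-like cells of EXO and dEXO, beside 44.1% and 43.4% of all genes. In stromal-like cells of dEXO 6 of 19 were lower, beside 24.1%. In cells of 10000 to 30000 UMIs, chosen after seeing the data, the EXO against PBS median was -0.31 and Soat1 reversed to 0.035. In stromal-like cells of dEXO against PBS, 5 of 19 were lower with at most 10% mitochondrial UMIs and 4 with each cell weighted equally; in EXO against PBS, 5 of 19 were lower with the 32 genes kept in clustering. In Sertoli-like cells 7 of 9 were lower in dEXO against PBS with a minimum of 200 UMIs, where fewer genes were measured than in the main setting. In dEXO against EXO 3 of 17 were lower at resolution 2. Within c5, 9 of 15 were lower in EXO against PBS, 5 of 15 in dEXO against PBS and 5 of 12 in dEXO against EXO; the last was 6 of 15 within c13 and 3 of 6 within c14. Within c2, with 52 PBS cells, EXO against PBS reversed for Insig1 (0.074), Stard4 (0.048) and Lipa (-0.015). No paired analysis was possible because each group is 1 library. Libraries and treatments cannot be told apart, PBS cells were deeper, and classes of under 100 PBS cells limit the Sertoli-like ratios.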
